A study of Mus musculus with 20 samples.

Results

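The genes described here encode the classical axon guidance cues and their receptors: ephrins and Eph receptors, semaphorins with plexins and neuropilins, Slits and Robo receptors, and netrins with Dcc and the Unc5 receptors. The members were chosen with earlier results of these data known. The rule itself used gene family names in the deposited table and no measured values, and it gave 70 of 22734 genes. They comprised 14 Eph receptors, 8 ephrins, 20 semaphorins, 9 plexins, 2 neuropilins, 3 Slits, 4 Robo receptors, 3 netrins (Ntn1, Ntn4 and Ntn5), 2 netrin-G genes and 5 netrin receptors. RNA sequencing had been done on the mouse cochlea and on the superior olivary complex (SOC), a group of auditory brainstem nuclei that compare the input from both ears. Each organ was sampled at embryonic day 16 (E16), postnatal day 0 (P0) and postnatal day 16 (P16), with 3 cochlear libraries per age. The SOC had 4 libraries each for E16 and P0 and 3 for P16. All animals were wild type and untreated, and each library came from pooled animals of both sexes, so that differences between individual animals were averaged within a library. The cochlear material was sensory epithelium (SE) from C57BL/6JOlaHsd mice. The SOC came from C57Bl6/J mice, and at E16 it was cut from sections of whole frozen heads, whereas at P0 and P16 the brain had first been taken out of the skull. The organs also differed in substrain, laboratory, sequencer and kit, which cannot be told apart from organ, and the organs were therefore compared by their change with age and not by level.

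Axon guidance molecules steer growing axons by attraction or repulsion. Ephrins are bound to the membrane, by a GPI anchor in class A and by a transmembrane segment in class B, and signal to Eph receptor tyrosine kinases at cell contacts. Semaphorins are secreted or membrane bound and act through plexins, with neuropilins as co-receptors for most class 3 members. Slits are secreted and repel axons that carry Robo1 or Robo2, and Netrin-1 attracts axons through Dcc and repels them through Unc5 receptors. In the auditory system these families are known from the wiring of spiral ganglion fibres and from the crossing of auditory brainstem axons at the midline, and many members are also used by vessels, glia and connective tissue.

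Library totals ran from 20843679 to 33109083 counts. Expression is given as CPM, the counts of a gene scaled to a common library total. In each organ 69 of the 70 genes were detected, with Robo3 listed at 0 in all 9 cochlear libraries and Ntn5 at 0 in all 11 SOC libraries. The table appeared to join 4 tables that had each been filtered on a highest count above 20, so that such a 0 can stand for up to 20 counts in a library. A total of 3 SOC libraries stood apart from the others of their age. SOC P16 replicate 3 held the highest value of its group for 49 of 66 members, SOC E16 replicate 4 the lowest for 42 of 69 and SOC P0 replicate 4 the lowest for 44 of 68. Over all genes the corresponding shares were 53.5%, 41.4% and 45.4%. Cochlear libraries were also uneven. Cochlear P0 replicate 1 held the lowest value of its group for 53 of 69 members. Cochlear E16 replicate 2 held the highest for 42 of 68 and cochlear P16 replicate 3 the highest for 39 of 68. Over all genes these cochlear shares were 37.2%, 41% and 43.4%. Counts without SOC E16 replicate 4 or SOC P16 replicate 3 are given below for P16 against E16 in the SOC. For the other comparisons, ranges over leaving out each library in turn are given at the end. The labelled tissues were checked against marker lists. The 10 hair cell markers summed to 331–353 CPM at E16 and 1053–1242 CPM at P16 in the cochlea. In the SOC the same list summed to 186–209 CPM at E16 and 533–578 CPM at P16. The hair cell genes Tmc1 and Slc26a5 were at 0 there at every age, and Atoh1 and Espn at P16. The list did not rise as a whole in the SOC. Of its 8 genes tested at P16 against E16, 2 were called higher and 4 lower by the criteria given below. Their median log2 fold change was −3.82. All 10 SOC neuron markers were present in the SOC, with a sum of 310–430 CPM at E16 and 1717–1987 CPM at P16. In the cochlea this list summed to 251–266 CPM at E16 and 2584–3041 CPM at P16, with the inhibitory neuron genes Slc6a5 and Slc32a1 at 0, so that the sum of the list does not separate the organs at P16.

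The SOC libraries of E16 also carried transcripts of tissue outside the brain. The 10 mesenchyme markers summed to 5314–7202 CPM there, 729–1089 CPM at P0 and 369–665 CPM at P16. For 8 cartilage markers the sums were 5572–11320 CPM at E16, 51–139 CPM at P0 and 263–304 CPM at P16. For 9 skeletal muscle markers they were 808–1677 CPM at E16 and 8.999–15.7 CPM at P0. These lists moved together with every SOC comparison against E16 below, and their part in those results was not tested. From P0 to P16 other lists fell in the SOC. The 6 choroid plexus markers went from 217–669 to 5.02–76.3 CPM, the 7 Schwann cell markers from 1129–1438 to 141–212 CPM and the 9 cell cycle markers from 189–328 to 73.8–89.0 CPM. In these lists 5, 4 and 8 genes were called lower and 0, 1 and 0 higher. The Schwann cell list shares Sox10 with the oligodendrocyte list used below. The cochlear libraries held connective tissue at all ages. Their cartilage sum was 5169–6280 CPM at E16, 12210–13910 CPM at P0 and 4868–6032 CPM at P16, with Matn3 at 0. Their mesenchyme sum was 3665–5988 CPM over all ages. The 7 bone markers summed to 17.0–23.9 CPM at E16 and 249–563 CPM at P16, and the cell cycle markers to 1031–1244 and 108–514 CPM. The part of these lists in the results at the same steps was not tested.

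A gene was called changed when its adjusted p in edgeR's quasi-likelihood test was under 0.01 over all genes tested, its fold change was over 2.5 and no library of the higher age lay below a library of the lower age. From E16 to P0 the guidance genes changed little in the cochlea, where 2 of 69 members were called higher and 0 lower. The background over all 21829 genes tested was 7.98%, with 4.57% higher and 3.40% lower. With P16 against E16 in the cochlea, 6 of 69 rose and 16 fell, beside 14.8% and 9.51% of all genes (24.3% in either direction). With P16 against P0, 6 rose and 15 fell, beside 14.5% and 10.4% (25.0%). Without cochlear P0 replicate 1 this count was 5 higher and 20 lower, beside 3122 and 2374 of 21829 genes. In the SOC, 2 of 69 rose and 10 fell from E16 to P0, beside 3.14% and 6.30% of 17372 genes (9.44%). At P16 against E16, 6 rose and 21 fell in the SOC, beside 11.7% and 13.8% (25.5%). At P16 against P0, 6 rose and 22 fell in the SOC, beside 7.48% and 8.33% (15.8%). In these bulk samples fewer cells of a type and less RNA per cell cannot be told apart.

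The falls thus took a larger share of the members than of all genes at P16 in either organ. The median log2 fold change of the members from E16 to P16 was −0.35 in the cochlea, against 0.014 for all genes, and −0.86 in the SOC, against −0.14 for all genes. The split in the SOC depended on how GC content was treated. When each library's trend with transcript GC content was removed, the median of all genes at P16 against E16 in the SOC moved to 0.32. In that fit 8 members were called higher and 14 lower, beside 2964 and 1649 of 17372 genes. Without the correction the all-gene counts were 2025 and 2399. The median of the members was −0.45 in that fit, 0.77 below that of all genes, and it was 0.72 below in the fit without this correction. At P16 against P0 in the SOC the correction gave 8 higher and 13 lower, beside 1883 and 998 of all genes. At P16 against E16 in the cochlea it gave 6 higher and 18 lower, beside 3197 and 2176 of all genes. No called member changed sign under any of the scalings. Without SOC E16 replicate 4 the SOC count at P16 against E16 was 5 higher and 25 lower, beside 2170 and 2795 of 17369 genes. Without SOC P16 replicate 3 it was 5 higher and 24 lower, beside 2162 and 2590 of 17270 genes. Of the 21 members lower in the SOC, 20 were also called in each of these fits.

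**Figure D1:**
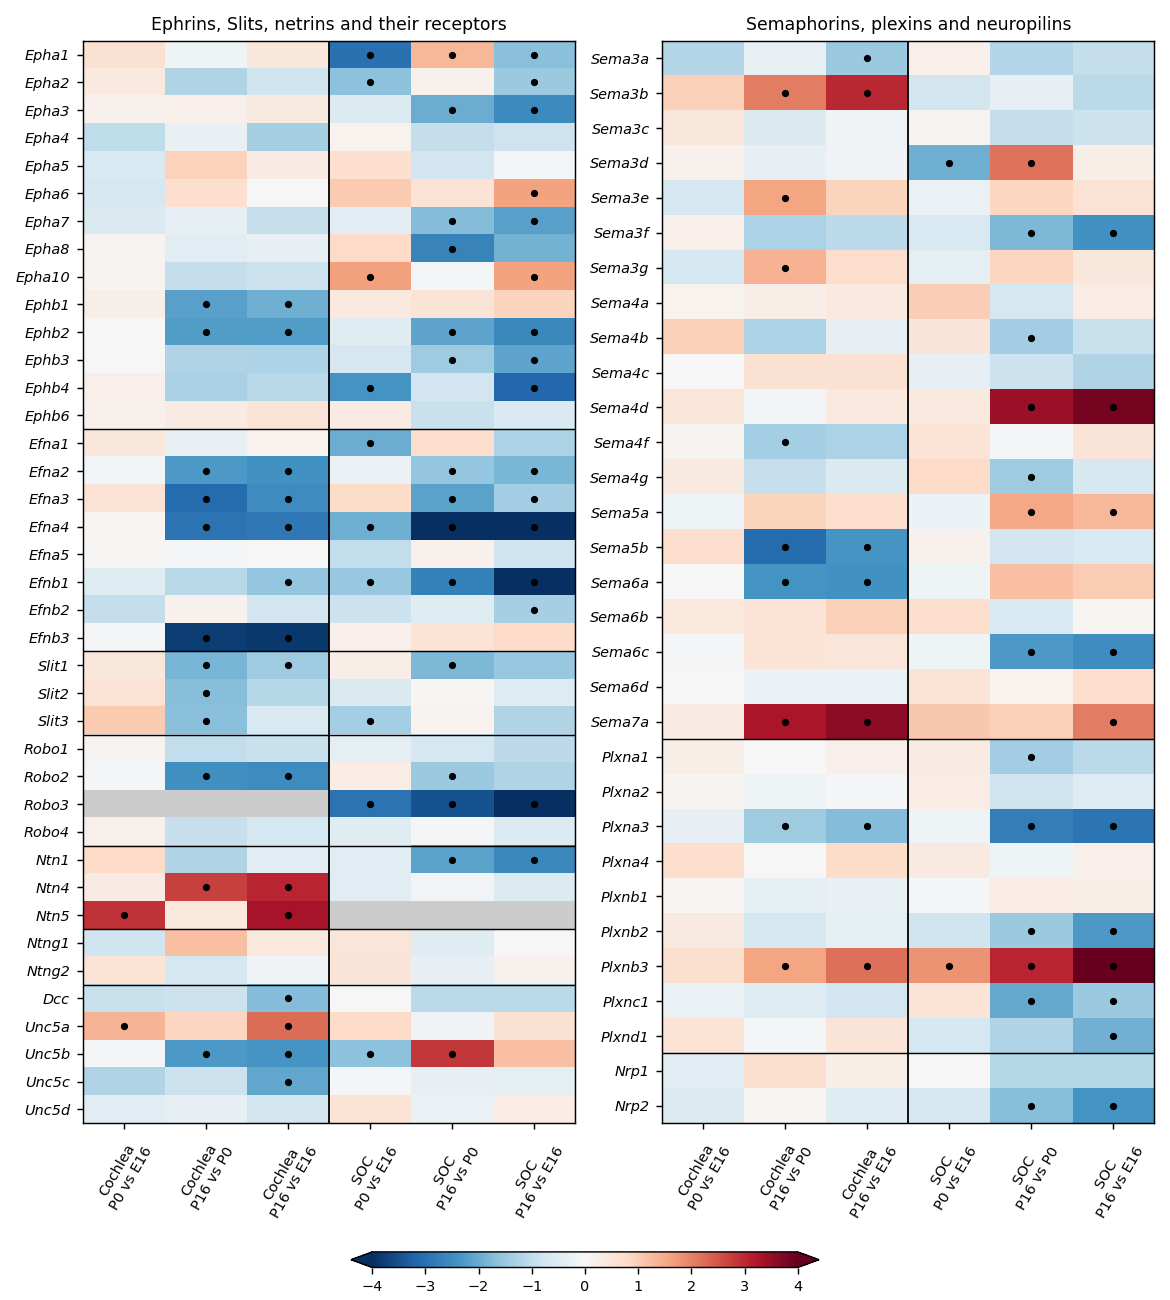
Heat map of the log2 fold changes of the 70 guidance genes (rows, grouped by family) in 6 comparisons of ages (columns, 3 for the cochlea and 3 for the SOC). Dots mark called changes and grey marks a gene at 0 in that organ. Most dots lie in the columns with P16, and the ephrin rows hold dots for falls and none for rises.

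The ephrins are the membrane-bound ligands of Eph receptors. At P16 against E16, 5 of 8 were called lower in the cochlea, 5 of 8 were called lower in the SOC and 0 were called higher in either organ. These were 62.5% of the genes in each organ, beside 24.3% and 25.5% of all genes called in either direction. Of the uncalled ephrins, 2 in the cochlea and 1 in the SOC had a fold change above 0. Their median log2 fold change was −2.0 in the cochlea and −1.36 in the SOC. With the GC correction 2 of 8 were still called lower in the SOC, Efna4 and Efnb1, while Efna2, Efna3 and Efnb2 lost the call. Efna3 also lost it without SOC E16 replicate 3 or SOC P16 replicate 1 and with the joined table as a term in the fit. Summed over the class A genes, the level per kilobase of exon in the cochlea was 44.7 ± 6.004 CPM (SD, n = 3) at E16 and 26.4 ± 0.563 CPM (n = 3) at P16. In the SOC this sum was 40.1 ± 5.43 CPM per kilobase (n = 4) at E16 and 10.2 ± 0.886 (n = 3) at P16.

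Efna4 (ENSMUSG00000028040, mm10, chromosome 3, 89333390 to 89338028) encodes ephrin-A4, a GPI-anchored ligand. Its cochlear CPM was 17.2, 24.1 and 19.2 at E16, 17.6, 21.2 and 21.6 at P0 and 3.02, 2.29 and 2.54 at P16. All P16 libraries lay far below those of both earlier ages, with a log2 fold change against E16 of −2.88 ± 0.18 (SE, adjusted p = 2.44e-07). In the SOC its CPM was 15.8, 11.9, 13.5 and 8.64 at E16, 2.88, 2.63, 2.61 and 4.31 at P0 and 0.199, 0.162 and 0 at P16. The fall in the SOC was called both at P0 against E16 (log2 fold change −1.95 ± 0.32, adjusted p = 0.000451) and at P16 against P0 (−4.43 ± 0.53, adjusted p = 2.37e-05). In the cochlea no change was called from E16 to P0, and the organs were not tested against each other at that step. The mesenchyme and cartilage sums of the SOC given above fell at the same step, and their part was not tested. The SOC values at P16 rest on 5, 4 and 0 counts, and with the 0 set to 20 counts the log2 fold change from E16 to P16 moved from −6.38 to −4.78. Of the exon sequence of Efna4, 10.5% overlaps the gene 4731419I09Rik, and reads there could not be assigned without knowing how strand was used.

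Efna2 and Efna3, also GPI-anchored ligands, fell in both organs. Efna2 stood at 13.7, 22.0 and 15.8 CPM in the cochlea at E16 and at 2.19, 2.72 and 4.36 CPM at P16, with a log2 fold change of −2.41 ± 0.26 (adjusted p = 1.41e-05). In the SOC Efna2 stood at 18.0, 26.1, 22.8 and 15.0 CPM at E16, at 15.3, 18.1, 16.4 and 15.9 CPM at P0 and at 4.46, 3.60 and 5.99 CPM at P16. The SOC libraries of E16 and P0 overlapped and those of P16 lay below both, with a log2 fold change against E16 of −1.83 ± 0.20 (adjusted p = 5.22e-06). Efna3 fell from a mean of 2.58 CPM at E16 to 0.429 CPM at P16 in the cochlea and from 28.1 to 8.65 CPM in the SOC. In the SOC its P0 libraries, with 36.8 to 49.0 CPM, all lay above those of E16, a difference that did not pass the fold threshold. Of the exon sequence of Efna3, 14.1% overlaps the gene Gm15998, with the same limit as for Efna4. The other class A ligands behaved otherwise. Efna1 was called lower in the SOC at P0 against E16 (log2 fold change −1.97 ± 0.18, adjusted p = 4.30e-06), and Efna5 was called in no comparison, with 49.7 to 53.0 CPM at E16 and 44.7 to 52.8 CPM at P16 in the cochlea.

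Of the class B ligands, Efnb3 was called lower in the cochlea alone. Efnb3 (ENSMUSG00000003934, chromosome 11, 69554092 to 69560205) encodes ephrin-B3, known as a midline barrier for axons that carry Epha4. In the cochlea its CPM was 46.0, 55.9 and 43.6 at E16, 40.9, 45.4 and 43.7 at P0 and 2.98, 3.71 and 2.65 at P16. The level at P16 lay below every earlier cochlear library, with a log2 fold change against E16 of −3.88 ± 0.17 (adjusted p = 1.40e-08). In the SOC the CPM of Efnb3 was 65.7, 70.6, 81.8 and 51.6 at E16, 71.9, 86.5, 88.2 and 57.9 at P0 and 80.5, 83.6 and 117 at P16. These groups overlapped and no change was called in the SOC. The difference between the organs in the change from E16 to P16, tested as an interaction in 1 model over all 20 libraries, was −4.55 ± 0.25 on the log2 scale (adjusted p = 1.25e-10). As a share of the summed ephrin-B level per kilobase, Efnb3 went from 17.0% ± 1.92 (SD, n = 3) at E16 to 2.72% ± 0.367 (n = 3) at P16 in the cochlea and from 42.9% ± 3.05 (n = 4) to 89.1% ± 0.788 (n = 3) in the SOC.

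Efnb1, the transmembrane ligand ephrin-B1 (ENSMUSG00000031217), fell in both organs. Its cochlear CPM was 90.5, 97.0 and 91.1 at E16, 59.7, 66.5 and 60.5 at P0 and 31.2, 30.4 and 26.4 at P16, so that each age was separate from the next. The log2 fold change from E16 to P16 was −1.59 ± 0.11 (adjusted p = 4.47e-07). In the SOC Efnb1 had 82.4, 75.0, 81.8 and 38.9 CPM at E16, 26.2, 25.1, 21.5 and 21.6 CPM at P0 and 2.39, 1.82 and 5.06 CPM at P16. The log2 fold change there was −4.21 ± 0.33 (adjusted p = 3.86e-07), with called falls both at P0 against E16 and at P16 against P0. Efnb2, the ligand of Ephb4, carried the highest level per kilobase of the ephrin-B genes in the cochlea, with 53.0% ± 2.44 (n = 3) of the sum at E16 and 73.6% ± 1.22 (n = 3) at P16. Efnb2 was called lower in the SOC (log2 fold change −1.33 ± 0.22, adjusted p = 0.000197), close to the fold threshold. It lost that call without any of SOC E16 replicates 1, 2 and 4, SOC P0 replicate 4 or SOC P16 replicates 1 and 3, left out in turn, and with the replicate block. The call was also lost with the zeros of the joined tables set to 20 counts.

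**Figure D2:**
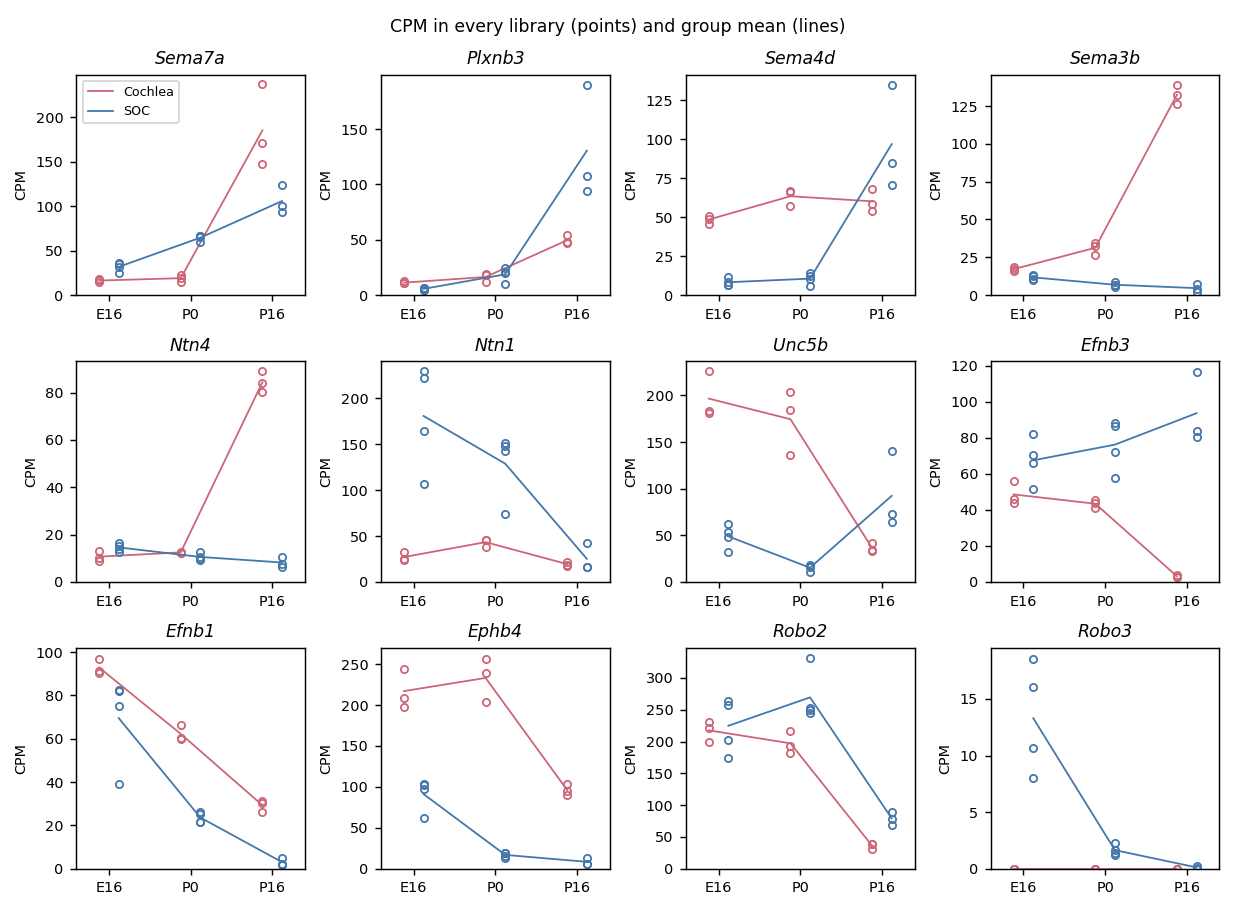
CPM of 12 guidance genes in every library (points), with the mean of each group as a line, by organ and age. Efnb3 drops at P16 in the cochlea and not in the SOC, Sema4d climbs at P16 in the SOC and not in the cochlea, and Robo3 is at 0 in all 9 cochlear libraries.

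Among the Eph receptors 0 of 14 rose and 2 fell in the cochlea at P16 against E16, a share of 14.3% beside 24.3% of all genes. In the SOC 2 rose and 7 fell, 64.3% beside 25.5%, and with the GC correction 3 rose and 5 fell. Their median log2 fold changes were −0.82 and −1.58. Ephb2, a receptor of B ephrins, was called lower in both organs, with a log2 fold change of −2.23 ± 0.20 (adjusted p = 3.03e-06) in the cochlea. The SOC value was −2.57 ± 0.22 (adjusted p = 6.60e-07). Ephb1, which signals in the same pathway, fell in the cochlea from 36.3–41.4 CPM at E16 to 8.68–10.1 CPM at P16 (−1.94 ± 0.13, adjusted p = 3.35e-07). In the SOC Ephb1 was at 47.7–71.7 CPM at E16 and 77.2–106 CPM at P16, a difference under the fold threshold, and the change differed between the organs (interaction −2.75 ± 0.20, adjusted p = 6.08e-09). With the GC correction Ephb1 was called higher in the SOC.

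Ephb4, the receptor of ephrin-B2 and a marker of venous endothelium, had 102, 97.1, 104 and 61.4 CPM in the SOC at E16, 19.3, 19.6, 15.8 and 13.0 CPM at P0 and 6.33, 6.28 and 12.8 CPM at P16. Every P0 and P16 library lay below every E16 library, with a log2 fold change from E16 to P16 of −3.15 ± 0.26 (adjusted p = 5.62e-07) that had reached −2.39 ± 0.22 (adjusted p = 6.47e-06) by P0. The 9 endothelial markers summed to 364–438 CPM in the SOC at E16, 252–321 CPM at P0 and 278–374 CPM at P16. In the cochlea Ephb4 stood at 198, 244 and 209 CPM at E16, 204, 257 and 239 CPM at P0 and 90.4, 94.7 and 103 CPM at P16. This difference between E16 and P16 was under the fold threshold (−1.11 ± 0.13, adjusted p = 2.53e-05). The change from E16 to P16 was higher in the cochlea by 2.14 ± 0.30 on the log2 scale (adjusted p = 1.25e-05), but with P0 in place of E16 as the early age the same difference was −0.42, and with the GC correction the interaction was not called.

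Epha7 and Epha4 carried the highest levels per kilobase of the EphA genes, Epha7 in the cochlea and Epha4 in the SOC. Epha7 made up 55.0% ± 2.05 (SD, n = 3) of the summed EphA level per kilobase in the cochlea at E16, and Epha4, which binds ephrins of both classes, 44.5% ± 2.11 (n = 4) in the SOC. The cochlear CPM of Epha7 was 701, 538 and 635 at E16, 488, 318 and 380.0 at P0 and 330.0, 359.6 and 249.5 at P16. This did not pass the fold threshold (−0.92 ± 0.18, adjusted p = 0.00102). In the SOC Epha7 had 113, 131, 109.7 and 153 CPM at E16, 74.8, 73.9, 82.8 and 131 CPM at P0 and 23.2, 23.3 and 21.04 CPM at P16. The P16 libraries lay below all others (−2.19 ± 0.24, adjusted p = 6.38e-06). The interaction of Epha7 was 1.36 ± 0.32 (adjusted p = 0.00199) and lost its call with the GC correction (1.15) and without SOC E16 replicate 4 (1.23), SOC P16 replicate 3 (1.22), cochlear E16 replicate 2 (1.27) or cochlear P16 replicate 1 or 2 (both 1.24).

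Epha4 was lower at P16 in both organs by less than the fold threshold. Its cochlear CPM was 264, 227 and 251 at E16, 121, 107 and 117 at P0 and 95.9, 102 and 86.2 at P16 (P16 against E16 −1.32 ± 0.11, adjusted p = 1.96e-06). This fold change lay at the threshold itself, and the GC correction put it past it. In the SOC the CPM of Epha4 was 271, 252, 265 and 310.3 at E16, 254, 247, 263 and 416 at P0 and 126, 119.7 and 135 at P16 (−0.81 ± 0.20, adjusted p = 0.00327).

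The 2 Eph receptors that rose in the SOC, Epha10 and Epha6, are little studied, and Epha10 is known to lack an active kinase. Epha10 had 15.5, 15.3, 17.9 and 14.6 CPM in the SOC at E16, 53.8, 47.9, 64.7 and 27.0 CPM at P0 and 31.7, 35.2 and 51.7 CPM at P16. The rise was complete by P0 (log2 fold change 1.65 ± 0.22, adjusted p = 8.26e-05) and the value at P16 against E16 was 1.61 ± 0.23 (adjusted p = 5.51e-05). Epha6 had 11.01, 15.1, 13.5 and 8.42 CPM at E16, 22.7, 23.5, 28.7 and 21.1 CPM at P0 and 26.3, 32.6 and 29.7 CPM at P16, with a log2 fold change from E16 to P16 of 1.61 ± 0.18 (adjusted p = 8.23e-06). In the cochlea Epha6 stayed at 1.05 to 2.23 CPM at all ages, and Epha10 was at 6.74–8.04 CPM at E16 and 3.50–4.72 CPM at P16 without a call. Epha3, Epha1, Epha2 and Ephb3 were the remaining receptors called lower in the SOC at P16 against E16. Epha1 and Epha2 lost that call with the GC correction, and Epha2 also without SOC P16 replicate 1 and with the joined table as a term. Epha1 had 2.49–3.65 CPM in the SOC at E16, 0.265–0.487 CPM at P0 and 0.608–1.10 CPM at P16. Its fall to P0 was called, and the value from P0 to P16 was 1.32 ± 0.36 (adjusted p = 0.0084), a call at the threshold that was lost without any 1 of the 11 SOC libraries and with RLE or upper-quartile factors, the low-count filter or the replicate block.

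The semaphorins are the largest of the ligand families. Of 20 genes, 2 rose and 3 fell in the cochlea at P16 against E16, and 3 rose and 2 fell in the SOC. In each organ 25% were called, near the 24.3% and 25.5% of all genes. The median log2 fold change was 0.12 in the cochlea and 0.16 in the SOC, beside 0.014 and −0.14 for all genes. The counts were the same with the GC correction in the SOC. A single semaphorin, Sema7a, and a single plexin, Plxnb3, were called higher in both organs, and no other member was. The 250 bases before the RefSeq start of each gene (GRCm38.p6, read 5′ to 3′ on the strand of the gene) are shown for this reason, with capitals for the motifs searched on both strands, namely the GC box GGGCGG, the E-box CAGCTG, the SOX motif ACAAAG and the TATA box TATAAA.
Sema7a, chr9:57939862-57940111, plus strand: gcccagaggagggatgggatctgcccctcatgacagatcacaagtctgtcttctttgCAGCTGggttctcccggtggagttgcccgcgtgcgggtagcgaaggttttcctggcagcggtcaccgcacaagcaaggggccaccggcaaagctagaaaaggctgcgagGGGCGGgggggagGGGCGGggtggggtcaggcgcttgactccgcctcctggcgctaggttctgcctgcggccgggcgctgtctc
Plxnb3, chrX:73756853-73757102, plus strand: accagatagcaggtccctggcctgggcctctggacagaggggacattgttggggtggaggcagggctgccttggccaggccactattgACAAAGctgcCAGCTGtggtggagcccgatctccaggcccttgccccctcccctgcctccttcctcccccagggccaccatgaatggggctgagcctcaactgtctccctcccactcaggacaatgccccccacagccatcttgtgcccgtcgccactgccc

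Both windows were rich in G and C, with 66.4% for Sema7a and 65.2% for Plxnb3, and both held the E-box. The window of Sema7a held 2 GC boxes and that of Plxnb3 none, while Plxnb3 held the SOX motif and Sema7a did not. Over 32851 RefSeq mouse promoter windows of this length, 13.0% held the E-box, 16.5% the SOX motif, 32.7% the GC box and 12.4% the TATA box. Of 76 windows found for 60 of the guidance genes, 15.8% held the E-box, 9.21% the SOX motif, 69.7% the GC box and 2.63% the TATA box. A match gives the letters only and says nothing of binding.

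Sema7a (ENSMUSG00000038264, mm10, chromosome 9, 57940112 to 57962865) encodes a GPI-anchored semaphorin that binds plexin-C1 and integrins. Its cochlear CPM was 14.4, 17.9 and 16.7 at E16, 14.6, 22.7 and 19.6 at P0 and 147, 172 and 237 at P16. E16 and P0 overlapped and P16 lay far above both, with a log2 fold change from E16 to P16 of 3.57 ± 0.22 (adjusted p = 1.97e-07). In the SOC Sema7a had 24.6, 34.5, 36.2 and 31.4 CPM at E16, 66.7, 66.2, 65.5 and 59.97 CPM at P0 and 100.4, 93.5 and 124 CPM at P16. The SOC thus showed a step at each age, of which neither passed the fold threshold alone, and a called rise from E16 to P16 (2.04 ± 0.13, adjusted p = 7.71e-08). The rise was larger in the cochlea by 1.64 ± 0.25 on the log2 scale (adjusted p = 4.08e-05), a call that was lost with the GC correction. At P16 Sema7a made up 25.3% ± 3.21 (SD, n = 3) of the summed semaphorin level per kilobase in the cochlea, against 2.91% ± 0.192 (n = 3) at E16, and 25.1% ± 1.51 (n = 3) in the SOC. Its receptor gene Plxnc1 fell in the SOC from 75.0–108 CPM at E16 to 22.8–28.3 CPM at P16 (−1.50 ± 0.14, adjusted p = 1.79e-06), a call that was likewise lost with the GC correction.

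Sema3b (ENSMUSG00000057969, chromosome 9, 107597674 to 107609229), a secreted class 3 semaphorin, rose in the cochlea. It had 16.2, 18.3 and 16.9 CPM there at E16, 26.7, 34.4 and 32.8 CPM at P0 and 126, 139 and 132 CPM at P16, with each age separate from the next. The log2 fold change from E16 to P16 was 3.02 ± 0.14 (adjusted p = 2.05e-08). In the SOC Sema3b was at 13.3, 9.88, 12.8 and 10.6 CPM at E16, 8.83, 6.47, 6.74 and 5.18 CPM at P0 and 4.22, 2.07 and 7.38 CPM at P16 (−1.08 ± 0.30, adjusted p = 0.00796, under the fold threshold). The interaction was 4.20 ± 0.37 (adjusted p = 4.40e-08). The other class 3 genes were called less uniformly. Sema3a fell in the cochlea (−1.49 ± 0.12, adjusted p = 1.30e-06), Sema3f fell in the SOC (−2.41 ± 0.29, adjusted p = 1.42e-05), and Sema3e and Sema3g were called higher in the cochlea from P0 to P16. Sema3e lost this call with the GC correction and Sema3g lost it without cochlear P0 replicate 1. Sema3d was called in the SOC at both steps, falling from 40.9–97.3 CPM at E16 to 14.8–22.1 CPM at P0 and rising to 60.1–67.2 CPM at P16.

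Sema4d (ENSMUSG00000021451, chromosome 13, 51685529 to 51793747), a transmembrane ligand of plexin-B1 that is known from immune cells and myelinating oligodendrocytes, rose in the SOC. Its SOC CPM was 6.61, 11.3, 8.22 and 6.62 at E16, 10.3, 12.1, 14.2 and 5.56 at P0 and 70.4, 84.9 and 135 at P16. The earlier ages overlapped and P16 lay above both, with a log2 fold change from E16 to P16 of 3.84 ± 0.30 (adjusted p = 2.98e-07). In the cochlea Sema4d stood at 45.4, 50.9 and 48.9 CPM at E16, 57.2, 65.9 and 67.0 CPM at P0 and 58.6, 53.7 and 68.0 CPM at P16, without a call. The interaction was −3.36 ± 0.35 (adjusted p = 3.69e-07). Over the same ages the 9 oligodendrocyte markers, all of them detected at P16, summed to 139–195 CPM at E16, 280–677 CPM at P0 and 30310–33480 CPM at P16 in the SOC. Their part in the rise was not tested.

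Of the transmembrane genes of classes 5 and 6, a pair was called in each organ. Sema6a, a ligand of plexin-A2 and plexin-A4, had 262, 269.6 and 271 CPM in the cochlea at E16, 214, 259 and 265 CPM at P0 and 45.5, 44.2 and 53.3 CPM at P16 (P16 against E16 −2.42 ± 0.13, adjusted p = 6.30e-08). In the SOC it had 38.7, 83.1, 51.8 and 49.6 CPM at E16, 43.8, 53.5, 61.0 and 34.2 CPM at P0 and 81.5, 94.7 and 98.2 CPM at P16, where E16 and P16 overlapped. The interaction was −3.34 ± 0.30 (adjusted p = 6.38e-08). As a share of the semaphorin level per kilobase in the cochlea, Sema6a went from 18.0% ± 1.28 (SD, n = 3) at E16, the highest of the family there, to 2.47% ± 0.123 (n = 3) at P16. Sema5b also fell in the cochlea (−2.36 ± 0.20, adjusted p = 2.04e-06) and Sema6c fell in the SOC (−2.47 ± 0.33, adjusted p = 3.41e-05). Sema5a, the ligand of plexin-B3, was called higher in the SOC at 1.32 ± 0.18 on the log2 scale (adjusted p = 4.31e-05), at the fold threshold. It lost the call without any of SOC E16 replicates 1, 3 and 4 or SOC P16 replicate 3, left out in turn. The call was also lost with upper-quartile factors, the low-count filter or the replicate block.

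Of the 9 plexins, 1 rose and 1 fell in the cochlea at P16 against E16, a share of 22.2% near the 24.3% of all genes. In the SOC 1 rose and 4 fell, or 2 with the GC correction, and 55.6% were called beside 25.5%. Plxnb3 (ENSMUSG00000031385, chromosome X, 73757090 to 73772514), the receptor of Sema5a, accounted for the rise in both. It had 10.5, 12.2 and 10.8 CPM in the cochlea at E16, 12.1, 19.0 and 17.9 CPM at P0 and 47.7, 46.8 and 54.3 CPM at P16 (P16 against E16 2.22 ± 0.18, adjusted p = 1.54e-06). In the SOC it had 4.59, 6.74, 6.42 and 4.51 CPM at E16, 20.2, 20.5, 24.4 and 9.72 CPM at P0 and 94.0, 107 and 190.0 CPM at P16. All 3 ages were separate in the SOC, with a log2 fold change of 1.78 ± 0.27 (adjusted p = 0.000245) to P0 and of 4.83 ± 0.30 (adjusted p = 5.66e-08) to P16. The rise was larger in the SOC (interaction −2.51 ± 0.37, adjusted p = 2.47e-05). The oligodendrocyte sums in the SOC given above moved with Plxnb3, as did the sum of the 7 Schwann cell markers in the cochlea. That sum was 417–458 CPM at E16 and 4627–5143 CPM at P16, with 5 of the genes called higher and 1 lower. The part of both lists was not tested.

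Plxna3, which signals for class 3 semaphorins together with neuropilins, fell in both organs. Its cochlear CPM was 80.2, 97.5 and 86.1 at E16, 51.2, 70.8 and 76.1 at P0 and 20.1, 27.1 and 28.4 at P16 (P16 against E16 −1.73 ± 0.19, adjusted p = 1.42e-05). In the SOC it was 92.5, 111, 119 and 69.4 at E16, 79.6, 96.6, 96.1 and 64.8 at P0 and 7.44, 9.11 and 15.1 at P16 (−2.93 ± 0.24, adjusted p = 5.34e-07). E16 and P0 overlapped in the SOC and P16 lay below both. Plxnb2, Plxnc1 and Plxnd1 were the other plexins called lower in the SOC, and of these Plxnb2, with −2.29 ± 0.29 (adjusted p = 1.81e-05), kept its call with the GC correction. Nrp2, a co-receptor for class 3 semaphorins, fell in the SOC from 187–224 CPM at E16 to 28.1–35.1 CPM at P16 (−2.38 ± 0.15, adjusted p = 6.03e-08). It was at 193–213 CPM and 124–150.0 CPM in the cochlea, and the change differed between the organs (interaction 2.01 ± 0.19, adjusted p = 1.01e-07). Plxna1, Plxna2, Plxna4 and Plxnb1 were called at P16 against E16 in neither organ.

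The Slit ligands fell in the cochlea after birth. At P16 against P0 all 3 were called lower there, beside 10.4% of all genes. The log2 fold changes were −1.87 ± 0.26 for Slit1 (adjusted p = 0.000110), −1.72 ± 0.09 for Slit2 (adjusted p = 7.43e-08) and −1.67 ± 0.23 for Slit3 (adjusted p = 8.16e-05). In the SOC 1 of 3, Slit1, was also called lower at that step (log2 fold change −1.80), beside 8.33% of all genes. That call was lost with the GC correction and with the joined table as a term. It was also lost without any of SOC P0 replicates 1, 2 and 3 or SOC P16 replicates 1 and 2, left out in turn. Slit3 had 85.0, 115 and 90.6 CPM in the cochlea at E16, 139, 209 and 214 CPM at P0 and 53.5, 47.2 and 79.4 CPM at P16. It was therefore highest at P0, although the difference from E16 did not pass the fold threshold (1.05 ± 0.22, adjusted p = 0.00396). The cartilage sum of the cochlea given above was also highest at P0. In the SOC Slit3 had 17.4, 29.4, 24.2 and 14.6 CPM at E16, 7.77, 9.38, 11.2 and 4.16 CPM at P0 and 5.49, 6.52 and 10.7 CPM at P16, and was called lower at P0 against E16 (−1.36 ± 0.29, adjusted p = 0.00282), a call that was lost with the GC correction, without any of SOC E16 replicates 2 and 3 or SOC P0 replicates 1 and 4, and within the 6 libraries of E16 and P0 replicates 1 to 3. Slit3 held 62.0% ± 3.99 (SD, n = 3) of the summed Slit level per kilobase in the cochlea at E16 and 70.0% ± 3.91 (n = 3) at P16. In the SOC the largest share belonged to Slit1, with 51.0% ± 13.4 (n = 4) at E16, 70.6% ± 6.99 (n = 4) at P0 and 40.6% ± 7.17 (n = 3) at P16.

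Robo2, a Slit receptor of growing axons, fell in the cochlea from 231, 199.8 and 222 CPM at E16 and 216, 182 and 194 CPM at P0 to 38.1, 39.1 and 31.2 CPM at P16. The first 2 ages overlapped and the log2 fold change from E16 to P16 was −2.52 ± 0.13 (adjusted p = 3.99e-08). In the SOC Robo2 had 175, 258, 202 and 264 CPM at E16, 249, 252, 245 and 332 CPM at P0 and 78.3, 89.9 and 69.4 CPM at P16. It was called lower there at P16 against P0 (−1.50 ± 0.21, adjusted p = 7.42e-05), and against E16 the value was −1.19 ± 0.20 (adjusted p = 0.000258), under the fold threshold. The call against P0 was lost with the GC correction. Robo1 had the highest level per kilobase of the Robo genes in the cochlea at P16, with 68.1% ± 0.708 (SD, n = 3) of their sum, and was not called in either organ, nor was Robo4, the Robo of vessels.

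Robo3 is the divergent Robo receptor that allows commissural axons to cross the midline, and it was listed in the SOC and at 0 in the cochlea. The 250 bases before its RefSeq start are shown because Robo3 was the member with counts in the SOC alone, with capitals for the GC box on either strand.
Robo3, chr9:37433176-37433425, minus strand: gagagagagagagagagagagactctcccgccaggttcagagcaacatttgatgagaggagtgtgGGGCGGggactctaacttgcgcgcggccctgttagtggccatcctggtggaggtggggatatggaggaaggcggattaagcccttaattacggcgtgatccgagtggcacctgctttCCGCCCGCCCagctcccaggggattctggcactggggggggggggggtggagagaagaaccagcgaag

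This window held 61.2% G and C, the GC box once on the strand of the gene and, within the second run of capitals, 2 overlapping matches on the other strand, and none of the other 3 motifs. Robo3 (ENSMUSG00000032128, mm10, chromosome 9, 37415669 to 37433246) had 10.6, 16.02, 18.6 and 7.99 CPM in the SOC at E16, 1.63, 2.31, 1.24 and 1.40 CPM at P0 and 0.0796, 0.284 and 0 CPM at P16. The 3 ages did not overlap. The log2 fold change was −2.96 ± 0.39 (adjusted p = 7.82e-05) from E16 to P0 and −6.46 ± 0.59 (adjusted p = 1.28e-06) from E16 to P16. The P16 values rest on 2, 7 and 0 counts, and with the 0 set to 20 counts the latter was −4.86.

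The netrin family had its largest changes in the cochlea. Ntn4 (ENSMUSG00000020019, chromosome 10, 93640681 to 93747207), a netrin of basement membranes that binds laminin, had 10.3, 12.9 and 8.79 CPM in the cochlea at E16, 12.3, 12.8 and 12.3 CPM at P0 and 80.3, 83.9 and 89.1 CPM at P16. P16 lay above both earlier ages, which overlapped, and the log2 fold change from E16 to P16 was 3.06 ± 0.14 (adjusted p = 2.14e-08). In the SOC Ntn4 had 13.9, 16.6, 15.0 and 12.8 CPM at E16, 9.74, 9.38, 12.4 and 10.6 CPM at P0 and 7.72, 6.16 and 10.7 CPM at P16, without a call. The interaction was 3.69 ± 0.23 (adjusted p = 5.34e-10). Ntn5 also rose in the cochlea, from 0.224–0.769 CPM at E16 to 1.64–3.80 CPM at P0 and 3.65–3.97 CPM at P16. Its log2 fold change was 2.88 ± 0.44 (adjusted p = 0.000612) to P0 and 3.30 ± 0.43 (adjusted p = 5.78e-05) to P16, with 23.4% of its exon sequence lying under the gene Sec1.

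Ntn1 (ENSMUSG00000020902, chromosome 11, 68209364 to 68400823) encodes Netrin-1, the attractant of commissural axons. In the SOC it had 222, 165, 229.6 and 107 CPM at E16, 151, 142, 148 and 73.8 CPM at P0 and 16.5, 16.6 and 42.4 CPM at P16. E16 and P0 overlapped and P16 lay below both, with a log2 fold change from E16 of −2.58 ± 0.37 (adjusted p = 5.82e-05) and from P0 of −2.13 ± 0.36 (adjusted p = 0.000375). In the cochlea Ntn1 had 24.7, 32.8 and 23.7 CPM at E16, 38.1, 46.0 and 45.9 CPM at P0 and 18.8, 17.1 and 22.1 CPM at P16, with no call. The interaction was 2.26 ± 0.43 (adjusted p = 0.000383). Per kilobase the composition of the netrins therefore changed. In the cochlea Ntn4 made up 38.8% ± 1.41 (SD, n = 3) of the summed netrin level at E16 and 82.4% ± 0.815 (n = 3) at P16, while Ntn1 made up 58.8% ± 1.57 and 11.2% ± 1.02. In the SOC Ntn1 was the larger part at each age, with 87.3% ± 3.56 (n = 4) at E16 and 62.6% ± 7.15 (n = 3) at P16. The netrin-G genes, GPI-anchored relatives that do not bind Dcc, were called in neither organ.

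Of the 5 netrin receptors, 1 rose and 3 fell in the cochlea at P16 against E16, beside 14.8% and 9.51% of all genes. None of the 5 was called in the SOC, where 25.5% of all genes were. The GC correction added 1 rise in the SOC, that of Unc5b. Dcc, the attractive receptor of Netrin-1, fell in the cochlea from 23.1–25.3 CPM at E16 to 6.78–7.06 CPM at P16 (−1.74 ± 0.11, adjusted p = 2.59e-07), and Unc5c from 135–147 CPM to 27.5–38.8 CPM (−2.07 ± 0.13, adjusted p = 2.45e-07). Unc5a, which mediates repulsion, was the one that rose. Its cochlear CPM was 2.21, 2.74 and 2.12 at E16, 3.83, 6.53 and 6.67 at P0 and 7.06, 9.51 and 14.9 at P16 (P16 against E16 2.22 ± 0.31, adjusted p = 8.99e-05), with a called rise already at P0 (1.37 ± 0.31, adjusted p = 0.00529). The call at P0 was lost without any of 5 of the 6 cochlear libraries of E16 and P0 and with the GC correction. In the SOC Unc5a had 8.95, 13.1, 12.8 and 3.65 CPM at E16, 13.9, 18.4, 21.4 and 9.64 CPM at P0 and 8.95, 11.1 and 15.9 CPM at P16, and these ages overlapped.

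Unc5b (ENSMUSG00000020099, chromosome 10, 60762593 to 60831581), a netrin receptor of axons and vessels, went opposite ways in the organs after birth. In the cochlea it had 181, 226 and 183 CPM at E16, 136, 184 and 204 CPM at P0 and 32.9, 34.0 and 42.1 CPM at P16 (P16 against P0 −2.29 ± 0.18, adjusted p = 1.30e-06). In the SOC it had 48.5, 53.3, 61.6 and 31.9 CPM at E16, 17.8, 16.4, 16 and 10.6 CPM at P0 and 64.1, 72.9 and 139.9 CPM at P16. The SOC level was thus lowest at P0, with a called fall to that age (−1.64 ± 0.24, adjusted p = 0.000191) and a called rise after it (2.84 ± 0.26, adjusted p = 2.65e-06). The interaction over E16 and P16 was −3.47 ± 0.34 (adjusted p = 2.28e-07). Of the summed netrin receptor level per kilobase, Unc5b held 64.0% ± 3.63 (SD, n = 3) at E16 and 38.8% ± 1.35 (n = 3) at P16 in the cochlea, and 28% ± 5.82 (n = 4) and 48.0% ± 9.86 (n = 3) in the SOC.

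**Figure D3:**
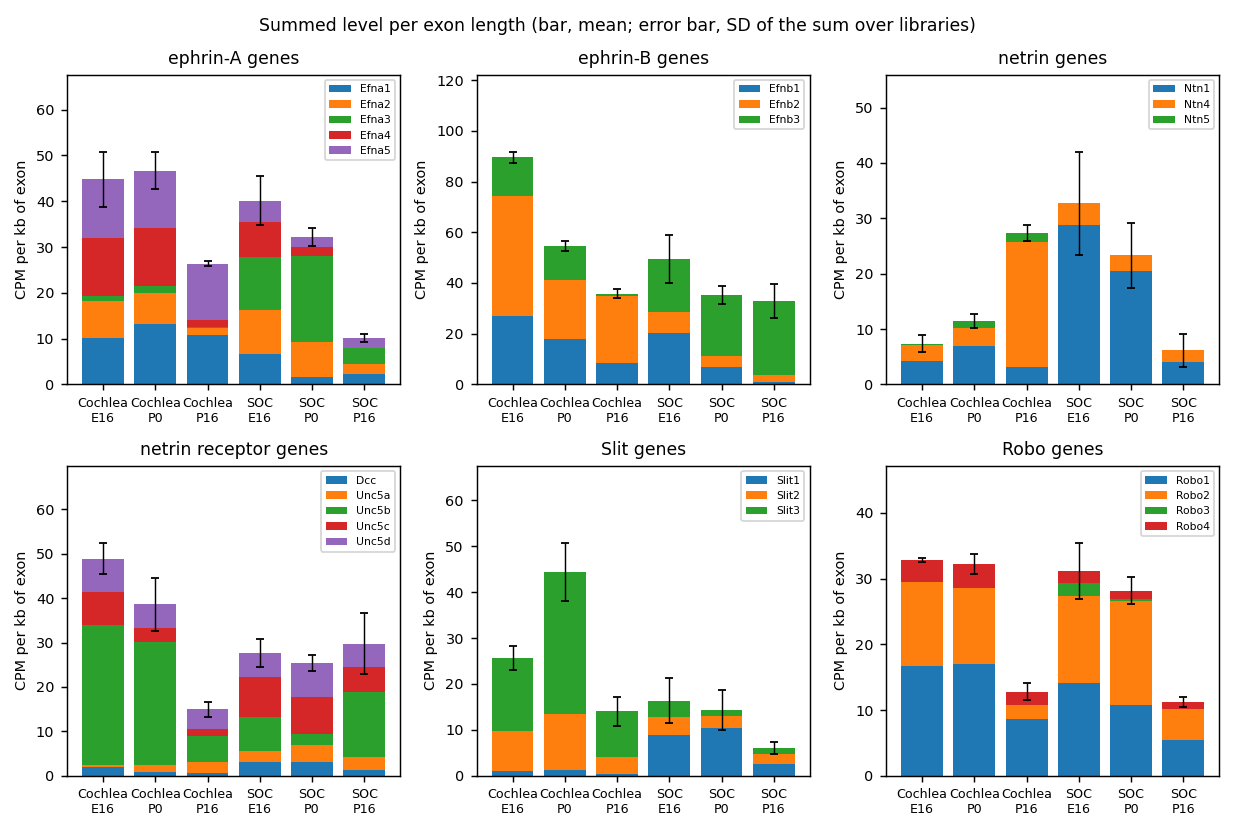
Stacked mean CPM per kilobase of exon for the ephrin-A, ephrin-B, netrin, netrin receptor, Slit and Robo genes, by organ and age, with 1 colour per gene and error bars for the SD of the sum over the libraries of a group. Efnb3 takes 89.1% of the ephrin-B level in the SOC at P16 and 2.72% in the cochlea, and Ntn4 takes 82.4% of the netrin level in the cochlea at P16.

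The 10 members called lower in the SOC by P0 were Robo3, Ephb4, Epha1, Epha2, Efna1, Efna4, Efnb1, Sema3d, Slit3 and Unc5b. They fell at the same step as the mesenchyme, cartilage and skeletal muscle sums given above. Within the 6 SOC libraries of E16 and P0 that shared 1 of the joined tables, 2 members were called higher and 9 lower. Of all 16502 genes tested in that fit, 772 were called higher and 1450 lower.

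The change from E16 to P16 itself was compared between the organs for the 68 members with counts in both. It was higher in the cochlea for 19 and higher in the SOC for 10, beside 13.3% and 5.95% of 16467 genes (19.2%). The 19 comprised Sema3b, Ntn4, Efna4, Sema6c, Epha3, Efnb1, Plxnd1, Ntn1, Epha1, Ephb4, Plxnb2, Nrp2, Sema4c, Sema7a, Efna1, Nrp1, Sema3f, Plxna1 and Epha7. The 10 comprised Efnb3, Unc5b, Sema4d, Sema6a, Ephb1, Plxnb3, Epha10, Sema4f, Unc5c and Epha6. With the GC correction the split was 10 and 15, beside 1636 and 1912 of all genes, which were 2189 and 979 without it. Lost were Efna1, Epha7, Ephb4, Nrp1, Plxna1, Plxnb2, Sema3f, Sema4c and Sema7a, and added to the SOC side were Efna2, Efna3, Robo2, Sema5b and Unc5d, while the median of all genes moved from 0.099 to −0.39. With P0 in place of E16 the counts were 17 and 11, beside 1716 and 1098 of all genes. Of these members, 11 and 6 were called the same way against E16. Epha1 was then called the other way, the calls of Efna1, Efna4, Ephb4, Ntn1, Plxnb2, Plxnd1, Sema3f, Epha6, Epha10, Sema4f and Unc5c were lost, and the value for Epha6 was 0.23 in place of −1.51. Efna4 was also near the floor of its counts in the SOC, and its interaction was 3.61 ± 0.56 (adjusted p = 4.66e-05), 1.99 with the 0 set to 20 counts and 1.60 with P0 in place of E16.

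**Figure D4:**
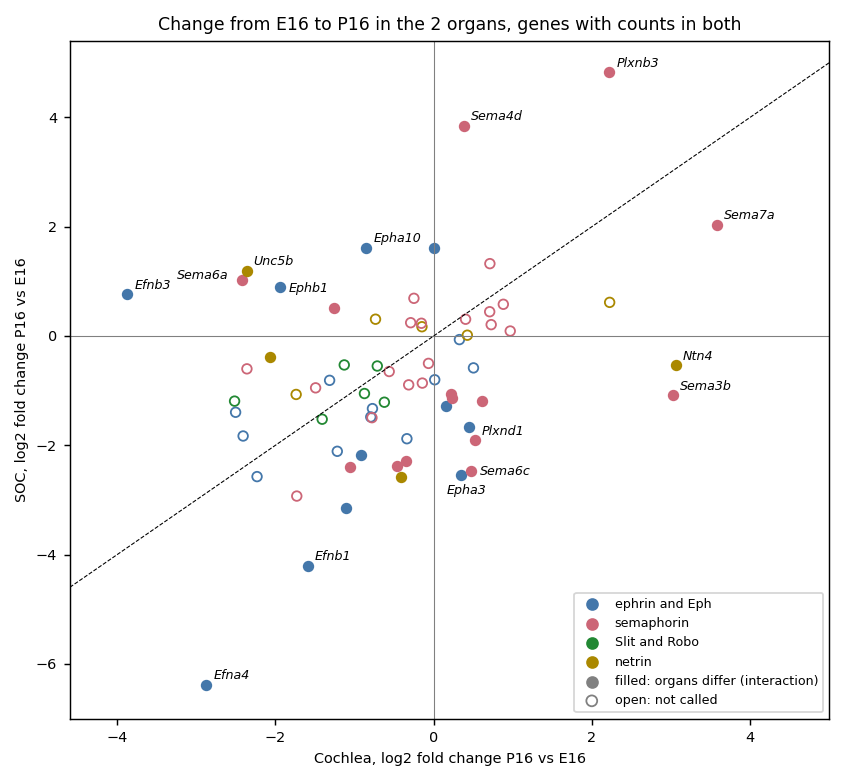
Log2 fold change of P16 over E16 in the cochlea (horizontal axis) against that in the SOC (vertical axis) for the 68 guidance genes with counts in both organs, coloured by family. Filled points are the 29 genes whose change differed between the organs, and the dashed line marks equal change. Efnb3, Sema6a and Unc5b lie far left of the line, Ntn4 and Sema3b far right, and Plxnb3 and Sema7a are the pair called higher in both organs.

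Taking both organs side by side at P16 against E16, the members called lower in both were Efna2, Efna3, Efna4, Efnb1, Ephb2 and Plxna3. None was called higher in 1 organ and lower in the other. Called in neither organ were 29 members, of which Efna1, Nrp1, Plxna1, Sema4c and Sema4f nevertheless differed between the organs by the interaction.

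Other genes of the pathway were taken from lists of 23 co-receptors and partners, 36 cytoplasmic effectors and 14 other cues and their receptors. Of these 73 genes 10 rose and 7 fell in the cochlea at P16 against E16, with a median log2 fold change of 0.047. These counts are near the background of 14.8% and 9.51% of all genes. In the SOC 10 rose and 16 fell, beside 11.7% and 13.8% of all genes, with a median of −0.30. The called changes of greatest size in the cochlea were those of Mag (6.20 ± 0.25), a myelin protein that inhibits axon growth, Rnd1 (4.97 ± 0.22), a small GTPase that binds plexins, Gap43 (−4.86 ± 0.29), a growth cone protein, Plxdc1 (2.92 ± 0.36), Dpysl5 (−2.85 ± 0.19), a collapsin response mediator, and the cell adhesion molecule Cntn1 (2.16 ± 0.13). In the SOC they were Mag (8.33 ± 0.38), the myelin glycoprotein gene Omg (5.68 ± 0.22), Draxin (−4.72 ± 0.45), a secreted cue that binds Dcc, Nfasc (3.87 ± 0.39), which organises the node of Ranvier, Plxdc1 (3.66 ± 0.39) and the chemokine receptor gene Cxcr4 (−3.64 ± 0.34). The adjusted p of these 12 changes ran from 2.25e-09 to 3.71e-05. Mag is itself a gene of the oligodendrocyte list, whose sum moved with Mag and Omg in the SOC.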

How the data were processed

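RNA of the cochlea and SOC at 3 ages was sequenced by the authors, who deposited raw read counts per gene for 20 libraries. Per the labels and methods, reads were aligned with STAR 2.5.3a to mm10 and counted with HTSeq. The GENCODE release and the use of strand are not given in the sources used here. Of the gene identifiers, 99.6% matched GENCODE M21, which supplied coordinates, exon lengths and GC content. The members and lists were chosen with earlier results of these data known. Groups and replicate numbers came from the sample titles.

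Each organ's genes with any count were tested in edgeR 4.0.16 (R 4.3.3; TMM factors, quasi-likelihood F test, the 3 ages fitted together), and p-values were adjusted by Benjamini and Hochberg over all of them. Calls needed an adjusted p under 0.01, a fold over 2.5 and libraries that did not overlap in CPM. The interaction was fitted over 20 libraries with the first 2 criteria. Errors of fold changes are standard errors, on the log2 scale. The steps were run on simulated counts with known fold changes and a single fixed spread for all genes. That setting held no shifts between libraries or joined tables, so it says nothing of calls that depend on them. P-values measure the spread between pools, since what else separated the replicates is not stated, and replicate libraries of a group differed by more than counting noise.

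The table appears to be a join of 4 tables: SOC E16 and P0 replicates 1 to 3; SOC E16 and P0 replicate 4 with SOC P16 replicates 1 and 2; SOC P16 replicate 3; and the 9 cochlear libraries. In each, no gene had a highest count from 1 to 20, and genes left out appear as 0. Same-numbered libraries of SOC E16 and P0 deviated together in all 4 pairs (r from 0.461 to 0.737) which meets the rule for pairing. The values printed for that comparison are from the fit without the replicate block, so their errors and adjusted p do not take the pairing into account. The block changed no count of members there. Over all genes it gave 581 higher and 1209 lower, against 545 and 1095 without it.

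Described in full were, per organ, the 5 members of largest called rise and of largest called fall at P16 against E16 with at least 5 CPM, the 3 largest interactions in each direction, and the member of highest level per kilobase in each family. Other members are given by counts, ranges or called fold changes. Promoter sequences are from RefSeq (GRCm38.p6), where 60 members had one. Alternatives were DESeq2 1.42.0, other scaling factors, a low-count filter, a test against the fold threshold, GC-adjusted offsets, the replicate block, other treatment of the joined tables, P0 in place of E16, and leaving out each library. The fit within SOC E16 and P0 replicates 1 to 3 was chosen after seeing the data. Figures were drawn with matplotlib 3.10.9.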

Additional observations from a re-analysis of the deposited data

Results flagged for a closer look

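Within the groups of 4 libraries, 44 sets of values were examined for a library far from the other 3, and chance marks about 1 in 20 of them. All 7 that stood out were replicate 4 of the SOC. At P0, replicate 4 was high for Efna4 (4.31 CPM), Robo2 (331.6 CPM), Epha7 (130.7 CPM) and Epha4 (416.5 CPM), and low for Ntn1 (73.81 CPM). At E16, replicate 4 was low for Efnb1 (38.94 CPM) and Ephb4 (61.42 CPM). Per the joined tables, these replicates came from another table than the other libraries of their age, and this was not tested as a cause.

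The change from E16 to P16 differed between the organs by the interaction test for Ntn4 (3.69) and Sema3b (4.20), which rose in the cochlea, for Efna4 (3.61), which fell further in the SOC, for Efnb3 (−4.55) and Unc5b (−3.47), which fell in the cochlea, and for Sema4d (−3.36), which rose in the SOC. These values are differences of log2 fold changes, cochlea minus SOC, with adjusted p from 1.25e-10 to 4.66e-05.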

How the results depend on the processing

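Of 296 values of the 14 counts under the alternatives, 277 were within 1.5 times the reported count. A test against the fold threshold of 2.5 gave 0 higher for the cochlea at P0 against E16, 3 higher for the cochlea at P16 against P0, 0 higher and 4 lower for the SOC at P0 against E16, 3 higher for the SOC at P16 against E16, 3 higher and 6 lower for the SOC at P16 against P0, and 8 for the interaction higher in the cochlea. GC-adjusted offsets gave 1 higher for the cochlea at P0 against E16, 13 lower for the SOC at P16 against P0 and 10 for the interaction higher in the cochlea, and with the replicate block added 1, 12 and 10. Leaving out 1 library gave 1 to 2 higher for the cochlea at P0 against E16, where Unc5a was the gene lost, 6 to 6 higher and 16 to 17 lower at P16 against E16, and 5 to 6 higher and 13 to 20 lower at P16 against P0. In the SOC the ranges were 2 to 2 and 9 to 10, 5 to 7 and 18 to 25, and 5 to 5 and 17 to 24 for the same comparisons, and for the interaction 17 to 22 and 10 to 11.

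Of 957 values of 41 member fold changes, 927 were still called, 28 were not, and 2 reversed, the interactions of Epha6 (0.23) and Ephb4 (−0.42) with P0 in place of E16. Replicate numbers did not pair the libraries outside SOC P0 against E16: 1 of 3 or 2 of 3 pairs had a correlation over 0.1. With the replicate block there, counts were 5 and 22 for the SOC at P16 against E16, 5 and 23 at P16 against P0, and 21 and 12 for the interaction, with Epha7 (1.19) the named member that lost its call. From 1 to 4 of 6 libraries correlated best with their own number in these comparisons, and 4 of 8 did in SOC P0 against E16. CPM on TMM-scaled totals (factors 0.823 to 1.10) moved by over 1 SD for 7 of 129 values. The floor of 3 counts, or of 20 for a joined 0, limits Robo3 and Efna4 at P16 in the SOC.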
